A study of Bombus terrestris with 16 samples.

Results

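Subunits of the respiratory chain and of ATP synthase, the machinery of oxidative phosphorylation, were followed in guts of the bumblebee Bombus terrestris after exposure to its gut trypanosome Crithidia bombi. The members are the transcript records whose KEGG orthologue definition names NADH dehydrogenase (ubiquinone), succinate dehydrogenase, ubiquinol-cytochrome c reductase, cytochrome c oxidase or the F-type ATPase. That rule, applied to the annotation alone and at any annotation score, found 88 of the 10635 records, under 66 orthologue names. A minimum on low counts left 74 of the 88 for testing; the other 14 averaged at most 1.18 RPKM (read counts scaled by record length and library total). The groups were guts exposed to C. bombi genotype 068, guts exposed to genotype 075, guts exposed to genotype 161, and guts of control workers. Each group had 4 libraries, 1 from each of the colonies K, L, S and T, so there were 16 in all. Every library pooled gut RNA of 3 workers that were 7 d old and had been killed 18 h after exposure, and the colony and treatment labels are all that separates the libraries. A pool hides the spread between its workers, and with 1 pool per colony and exposure a p-value measures the spread between pools. Member names below are the usual human-style symbols of the KEGG orthologues and not names from the bee's own annotation.

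Complex I takes electrons from NADH, and complex II takes them from succinate in the citric acid cycle. Both pass them to ubiquinone, from which complex III moves them to cytochrome c and complex IV moves them to oxygen. Complexes I, III and IV pump protons out of the mitochondrial matrix, and ATP synthase, also called complex V, lets the protons back in through a turning rotor and makes ATP. Most subunits are encoded in the nucleus, a few of the hydrophobic cores in the mitochondrial genome. An insect gut lining works with high ion transport and secretion and is rich in mitochondria.

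The libraries held 8.47 to 9.29 M (mega) reads counted to records, and the members took 0.717% to 1.01% of them. The library of colony L after genotype 161 (L 161) stood apart: 13.1% of the 8406 tested genes lay more than 1 log2 unit below their mean over the 16 libraries, against 0.892% to 4.95% in the 15 others. Earlier results of these data also set the K control and S 075 libraries apart, and the counts below were repeated without these 3 and without L 161 alone. Records with gut-lining annotations (74 matched, alpha-glucosidases and chitinases leading) summed to 185999 to 292784 CPM in the exposed libraries and 154825 to 227604 CPM in the controls, where CPM are counts per M reads, scaled with edgeR's TMM factors. Muscle records (54 matched) summed to 4168 to 6458 CPM in exposed and 4598 to 6549 CPM in control libraries, and hemocyte-type records (9 matched) to 200.4 to 408 CPM in exposed and 265 to 537 CPM in control libraries. Nervous-system records (44 matched), Malpighian tubule records (39), enteroendocrine records (4) and stem or dividing-cell records (13) made up a mean of 0.0551%, 0.510%, 0.00348% and 0.0255% of the scaled reads. The 4 enteroendocrine records were annotated as tachykinin-like or allatostatin receptors, and none as a peptide. No record of these lists lacked reads in all libraries, and the fat body list matched no record. In such bulk tissue, fewer cells of a type and less RNA per cell cannot be told apart.

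The members were abundant. The 74 tested records had a median level of 55.1 RPKM over the 16 libraries, against 7.91 RPKM for all tested genes. Of the 74, 25 exceeded 100 RPKM, which 5.84% of all tested genes did. By complex the median level of the tested records was 54.4 RPKM for complex I (35 tested of 41 records), 52.0 RPKM for complex II (4 of 5), 51.7 RPKM for complex III (11 of 13), 19.3 RPKM for complex IV (11 of 13) and 156 RPKM for ATP synthase (13 of 16). Each complex had a mix of levels wide enough to overlap all the others.

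**Figure D1:**
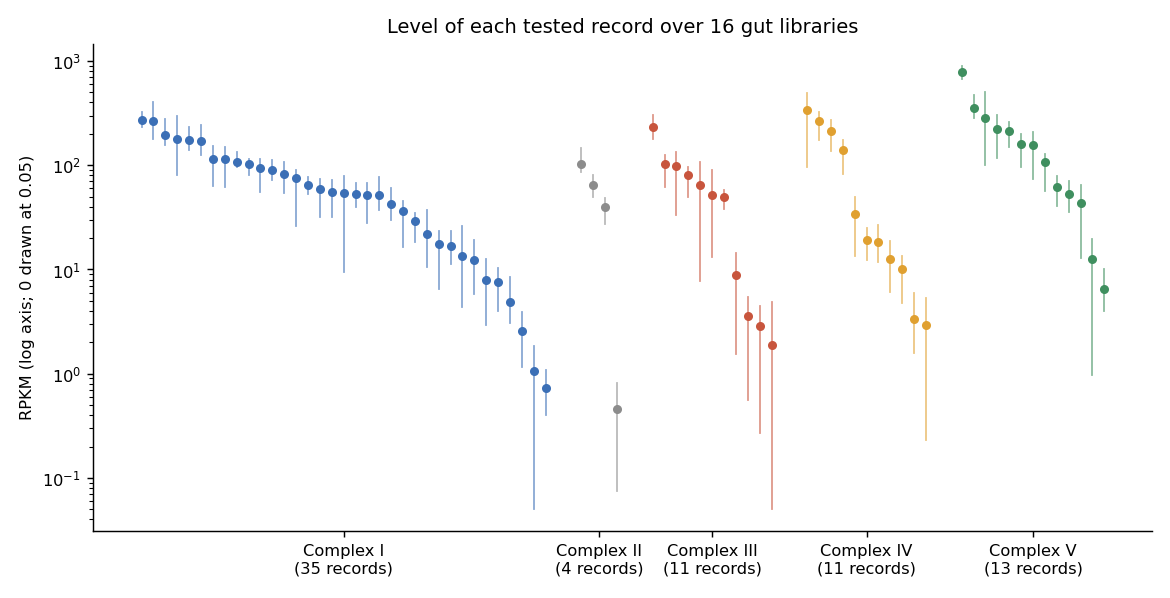
Level of the 74 tested records in RPKM on a log axis, grouped by complex and sorted by mean. Points are means over the 16 libraries and lines run from the lowest to the highest library; ATP synthase subunit c, at 791 RPKM, is above every other member, and complex IV holds both very high and low records.

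Among the core subunits of complex I, some of which carry the flavin or iron-sulphur clusters, NDUFS7 was the most abundant at 272 ± 24.5 RPKM (mean ± SD, n = 16; XM_003396541.1). NDUFV2 followed at 108 ± 10.3 RPKM. NDUFV1, which binds NADH and the flavin, had 64.5 ± 5.67 RPKM. NDUFS1, the largest core subunit, had only 29.1 ± 4.55 RPKM and NDUFS3 16.7 ± 3.26 RPKM, so core subunits of one complex differed in level well beyond their spread over libraries. Of the accessory subunits, which surround the core, NDUFA7 (264 ± 54.2 RPKM) was the highest and overlapped NDUFS7. The tested complex I record with the lowest level was annotated NDUFB3 (0.733 ± 0.193 RPKM, with reads over a mean of 10.6% of its 2726 bases). NDUFA4, which KEGG lists under complex I and which mammalian work places in complex IV, had 195 ± 30.004 RPKM. NDUFAB1, the mitochondrial acyl carrier protein, had 177 ± 61.3 RPKM.

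Complex II has no mitochondrially encoded part and doubles as an enzyme of the citric acid cycle. Its membrane anchor SDHD had 103 ± 12.9 RPKM, its flavoprotein SDHA 64.5 ± 7.93 RPKM and its iron-sulphur subunit SDHB 39.5 ± 5.87 RPKM. The other anchor subunit is not analysed here. Further records annotated SDHA and SDHB (XM_003402299.1 and XM_003394135.1) averaged 0.463 ± 0.254 and 0.350 ± 0.268 RPKM.

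In complex III, the small subunit UQCRB had the highest level, 230.2 ± 34.98 RPKM. The Rieske iron-sulphur protein UQCRFS1 had 104 ± 15.6 RPKM, and cytochrome c1 (CYC1), which hands electrons to cytochrome c, had 80.8 ± 13.1 RPKM. UQCRC2, a core subunit without a redox centre, had 49.2 ± 6.37 RPKM, and the hinge protein UQCRH 64.9 ± 25.7 RPKM. The lowest of the 13 was a UQCRQ record (XM_003393889.1) at 1.01 ± 0.750 RPKM, which was not tested.

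Complex IV spanned the widest range of the electron-carrying complexes. COX7A led with 336 ± 88.3 RPKM, followed by COX5B with 263 ± 52.2, COX5A with 214 ± 35.3 and COX4 with 141 ± 25.3 RPKM, all of them nuclear-encoded subunits around the catalytic core. Assembly proteins that the definition also takes in were lower: COX11 and COX17, which deliver copper, had 12.7 ± 3.45 and 3.35 ± 1.25 RPKM, and COX15, which works in haem A synthesis, 10.2 ± 2.22 RPKM. A record annotated as COX1 (XM_003394378.1), the catalytic subunit that animals encode in the mitochondrial genome, averaged 2.93 ± 1.44 RPKM. Whether this record is a transcript of that mitochondrial gene was not tested. The 2 untested COX6C records were the lowest, with no read in 15 of the 16 libraries each.

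In ATP synthase, subunit c, which forms the rotor ring in the membrane, had the highest level of all members, 791 ± 67.8 RPKM (XM_003403106.1). The catalytic head subunits beta and alpha had 353 ± 44.9 and 214 ± 27.99 RPKM (XM_003400566.1 and XM_003396687.1). The central stalk was lower and uneven, with 108 ± 17.6 RPKM for gamma, 12.5 ± 4.29 RPKM for delta and 6.50 ± 1.58 RPKM for epsilon. Reads lay over a mean of only 24.5% of the delta record and 34.0% of the epsilon record. The peripheral stalk had 160.5 ± 25.2 RPKM for b, 156 ± 36.5 for d, 52.6 ± 9.35 for F6 and 43.6 ± 12.3 for OSCP. Of the small membrane subunits, g had 282 ± 92.3, f 223 ± 44.8 and e 61.98 ± 11.3 RPKM. The lowest record was a further delta annotation (XM_003398471.1), with no read in 15 of the 16 libraries.

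Among the 66 names, 17 were carried by several records, 39 records in all. In 12 of the 17 the leading record held more than 90% of the summed RPKM, as for SDHA (99.3%), SDHB (99.1%) and UQCRFS1 (97.3%). The exceptions were COX6A, NDUFB5, UQCRQ, NDUFB4 and NDUFB3. The 2 COX6A records were near equal, 19.3 ± 3.99 RPKM for XM_003394339.1 and 18.3 ± 3.57 RPKM for XM_003394637.1. The leading NDUFB5 record held 74.5% of its sum and the leading UQCRQ record 68.3%. The gene table placed 4 of these records, a pair annotated NDUFB6 and a pair annotated ATP synthase epsilon, at a shared locus each. How reads that match several records of a name were assigned is not given in the sources used here, so the split within a name is uncertain.

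In RPKM, which is not scaled with TMM, the steadiest members were abundant core parts. Over the 16 libraries the coefficient of variation of RPKM was below 10% for 5 members, among them ATP synthase c (8.57%), NDUFV1 (8.79%), NDUFS7 (9.01%) and NDUFV2 (9.56%). This was a line that 2.89% of all tested genes met. In TMM-scaled CPM, ATP synthase c ran from 859 to 1310, NDUFV1 from 134 to 199, NDUFS7 from 205 to 323 and NDUFV2 from 91.3 to 169. The coefficients on that scale are not given here. The median was 20.4% for the 74 members and 24.2% for all tested genes. At the other end stood records with few reads, UQCRQ XM_003393888.1 (60.6%), SDHA XM_003402299.1 (54.8%) and NDUFB4 XM_003402057.1 (52.8%). Across members the coefficient fell with level (Spearman rho = -0.60, 74 records that share the same libraries, a description) and with record length (rho = -0.34).

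The tested members moved in part together from library to library. The log2 level of a member correlated with the median deviation of the other members at a median Pearson r of 0.56 over the 16 libraries, against 0.04 for all tested genes. Without L 161 the median was 0.42 for members and -0.01 for all genes. All these values share libraries and scaling and are given as a description. The tested members were also shorter than all tested genes, with median record lengths of 1157 and 2442.5 bases. The part of length in these correlations was not tested. UQCR10, a small complex III subunit, followed the rest most closely with r = 0.91 (0.81 without L 161), then COX7A with 0.88 (0.74) and COX6C with 0.88 (0.77). SDHD (-0.53), ATP synthase beta (-0.38) and COX6A XM_003394339.1 (-0.27) ran against the rest over 16 libraries. Without L 161, SDHD was at 0.20 and ATP synthase beta at 0.35, whereas the COX6A record was at -0.27. Complex II as a group had a median r of -0.05 with L 161 and 0.31 without it.

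**Figure D2:**
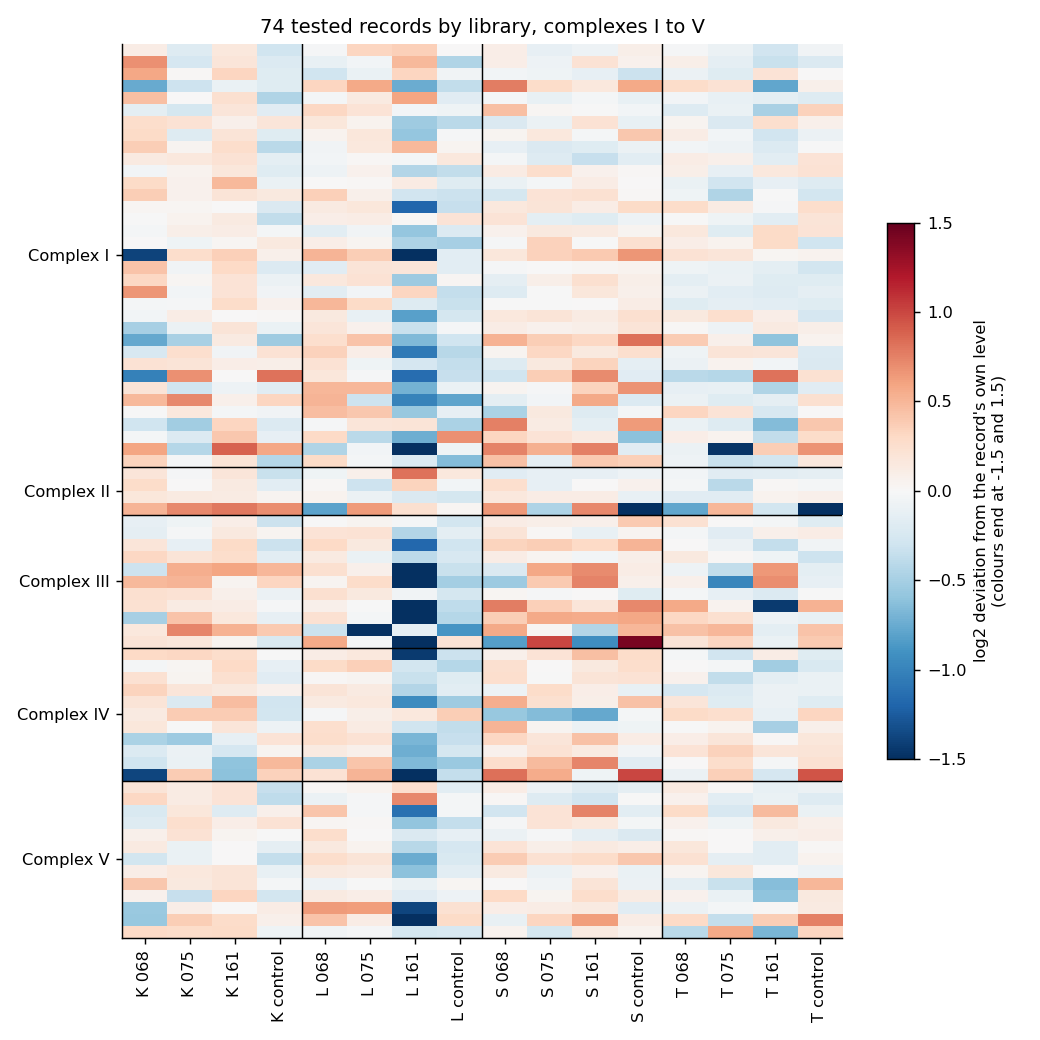
Deviation of each of the 74 tested records (rows, grouped by complex and sorted by level) from its own mean log2 CPM, by library (columns, 4 per colony). Red is above and blue below the record's mean; the L 161 column is the bluest, with 16 records below -1, and in the S columns 44 to 52 of the 74 records are above their mean.

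The first comparison set the 12 exposed libraries against the 4 controls with colony as a block. No member passed an adjusted p of 0.05 in edgeR's quasi-likelihood test, and neither did any of the 8406 genes (0%). At an unadjusted p below 0.05 there were 2 members of 74 (2.70%) and 263 genes (3.13%), and DESeq2 and limma called no member and no gene. The 2 members became 1 without colony K or colony L and 4 without colony S or without L 161. With each library's trend on record length removed they became 0 of 74 (all genes 2.49%). The fitted difference was above 0 for 51 of the 74 members, against 44.1% of all tested genes, and its median was 0.08 log2 units for the members and -0.02 for all. Without L 161 it was above 0 for 60 of 78 tested members, with a median of 0.11. In the same contrast the muscle list was above 0 in 12 of 42 tested records (median -0.08), the hemocyte list in 0 of 6 (median -0.22) and the list of stem and dividing cells in 2 of 12 (median -0.13); the part of these cells in the members' values was not tested.

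The member with the smallest p was NDUFA8, an accessory subunit of complex I (XM_003403006.1). It had 272, 196, 197 and 194 CPM after 068 in colonies K, L, S and T, 201, 219.6, 185 and 186 CPM after 075, 236, 300.3, 195 and 180.4 CPM after 161, and 146, 178, 185 and 174 CPM in the controls. Every exposed library was above its own colony's control, and the T value after 161 was below the S control. The log2 difference, exposed over control, was 0.30 ± 0.13 (SE; unadjusted p = 0.0308, adjusted p = 0.9998). ATP synthase c had 1250.3, 1108, 1183 and 1202 CPM after 068 in K, L, S and T, 1195, 1140.3, 1040.4 and 1105 CPM after 075, 1268, 1309.5, 957 and 1014 CPM after 161, and 859, 986, 999.2 and 1032 CPM in the controls. Only in colonies S and T after 161 was it below the control of its own colony. The difference was 0.24 ± 0.10 (SE; unadjusted p = 0.0357, adjusted p = 0.9998).

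CYC1 had 121, 107, 105 and 108 CPM after 068, 112, 91.1, 100 and 98.4 CPM after 075 and 117, 74.2, 94.9 and 93.5 CPM after 161 in K, L, S and T, against 87.2, 82.6, 103 and 78.4 CPM in the controls, a log2 difference of 0.20 ± 0.10 (SE; unadjusted p = 0.0518, adjusted p = 0.9998). All 4 values after 068 were above all 4 controls, whereas the L value after 161 was below all of them. UQCRC2 ranged over 81.1 to 110.1 CPM (median 94.4) in the 12 exposed libraries, against 87.8, 77.5, 82.4 and 92.6 CPM in the K, L, S and T controls, a difference of 0.18 ± 0.09. NDUFS3 ranged over 44.4 to 66.5 CPM (median 55.8) in the 12 exposed libraries, against 55.9, 41.2, 47.96 and 45.5 CPM in the K, L, S and T controls, a difference of 0.22 ± 0.11. NDUFA7 ranged over 102 to 208 CPM (median 131) in the 12 exposed libraries, against 111, 94.6, 135 and 111 CPM in the K, L, S and T controls, a difference of 0.27 ± 0.15. In these 3 the exposed range contained at least part of the control range, and none passed the test (adjusted p = 0.9998 for each).

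The leading records of the remaining core subunits had fitted differences between -0.04 and 0.20, none past the threshold (adjusted p = 0.9998 each). In complex I, NDUFS1 ranged over 63.7 to 103 CPM (median 94.4) in the 12 exposed libraries, against 83.8, 89.2, 103 and 95.7 CPM in the K, L, S and T controls (log2 difference -0.04 ± 0.12). NDUFV1, the entry point of electrons, ranged over 152 to 199 CPM (median 173) in the 12 exposed libraries, against 134, 198, 164 and 197 CPM in the K, L, S and T controls (0.01 ± 0.11). The exposed and control ranges overlapped in both. In complex II, SDHA ranged over 162 to 269.9 CPM (median 216) in the 12 exposed libraries, against 192, 207, 225 and 210.3 CPM in the K, L, S and T controls (0.05 ± 0.10), and SDHB over 71.3 to 92.8 CPM (median 87.6) in the 12 exposed libraries, against 85.2, 68.9, 76.6 and 87.2 CPM in the K, L, S and T controls (0.08 ± 0.09). In complex III the Rieske protein UQCRFS1 ranged over 83.6 to 132 CPM (median 113) in the 12 exposed libraries, against 116, 102, 116 and 123 CPM in the K, L, S and T controls (-0.01 ± 0.12). These 3 also overlapped with their controls. Some of these small differences turned sign with the libraries used: without colony K that of NDUFV1 was -0.123 and that of SDHA -0.0241, without L 161 that of NDUFS1 was 0.000602, and without L 161 or without colony T that of UQCRFS1 was 0.0309 or 0.0413.

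In complex IV, COX4 ranged over 125 to 212 CPM (median 183) in the 12 exposed libraries, against 176, 151, 156 and 157 CPM in the K, L, S and T controls (0.11 ± 0.11), and COX5A over 279 to 429 CPM (median 372) in the 12 exposed libraries, against 322, 318, 420.4 and 337 CPM in the K, L, S and T controls (0.07 ± 0.10). In ATP synthase, alpha ranged over 409 to 572 CPM (median 477) in the 12 exposed libraries, against 473, 437, 409 and 509 CPM in the K, L, S and T controls (0.08 ± 0.09). Each of these exposed ranges enclosed or overlapped its controls. Beta ranged over 894 to 1798 CPM (median 1088) in the 12 exposed libraries, against 837, 1067, 1084 and 954 CPM in the K, L, S and T controls (0.20 ± 0.15), with its highest value in L 161. Without the 3 libraries set apart the beta difference was -0.0232, and without colony K that of COX5A was -0.00903. Gamma, the turning shaft, ranged over 108 to 189 CPM (median 178) in the 12 exposed libraries, against 153, 148, 155 and 157 CPM in the K, L, S and T controls (0.15 ± 0.11). The single gamma value below the controls was that of L 161.

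By complex, the fitted difference was above 0 for 24 of 35 tested records of complex I, 4 of 4 of complex II, 7 of 11 of complex III, 7 of 11 of complex IV and 9 of 13 of ATP synthase. The group medians lay between 0.06 (ATP synthase) and 0.11 (complex II). Averaged over a colony's 3 exposures, 7 members were above the control in every colony (9.46% of 74, against 3.71% of all tested genes). They were NDUFA8, NDUFA7, NDUFS3, ATP synthase c, ATP synthase gamma and the leading records of NDUFB6 and UQCR11. The other tested NDUFB6 and UQCR11 records were not above the control in every colony. NDUFS1 and the COX1 record were below it in every colony (2.70%, against 6.22%). No member had its exposed libraries all above or all below the controls, and of all tested genes 0% lay above and 0.0238% below.

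Member medians relative to the own colony's control were uneven over the colonies, and the difference between colonies in these medians was not tested. The median log2 difference of the 74 members was 0.18, 0.11 and 0.27 in K after 068, 075 and 161, against medians of all tested genes between -0.04 and -0.02. In L it was 0.38, 0.33 and -0.19 for the same 3 exposures. In S it lay between -0.03 and 0.02, and in T between -0.07 and 0.02. The 3 differences of a colony share 1 control library. The K control was itself one of the libraries set apart. With the length trend of each library removed, its member median was -0.23, against -0.09 without that step. On log2(RPKM + 1), without TMM, the K control median was 0.16, above K 068 (0.076), K 075 (0.071) and K 161 (0.022). The direction of the member medians in K thus turned with the scaling. TMM scales all genes of a library by a common factor. That factor was 1.20 in the K control, against 0.967, 1.01 and 0.898 in K 068, K 075 and K 161. The median of all tested genes on log2(RPKM + 1) is not given here, so this turn does not show members against all genes.

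**Figure D3:**
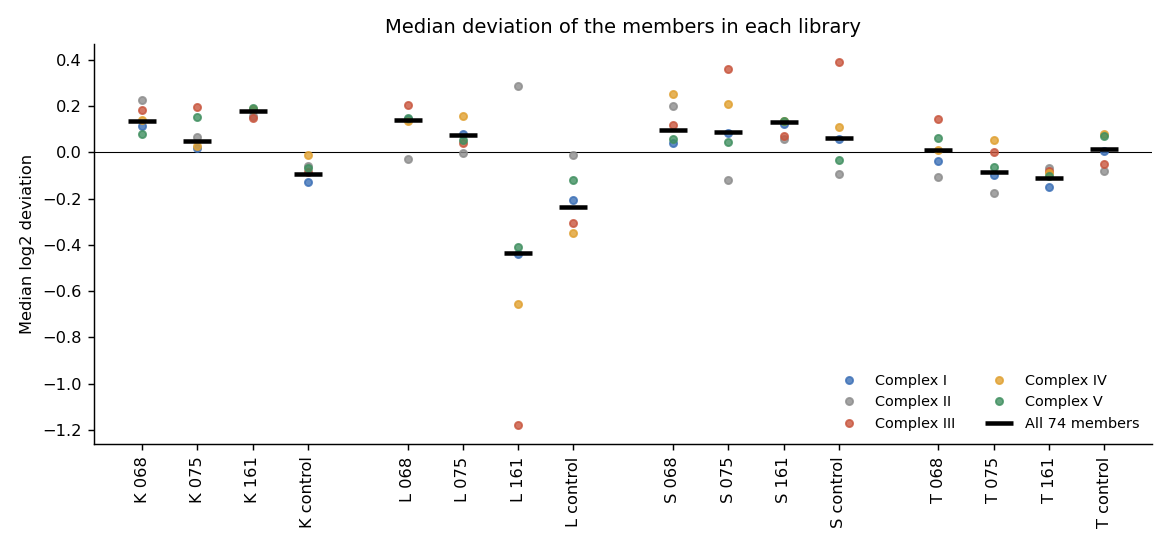
Median log2 deviation of the 74 tested members (bars) and of the members of each complex (points) in every library, from each record's mean over 16 libraries. In K and L the 068 and 075 libraries lie above the colony's control, in S and T the 4 libraries lie close together, and L 161 is the lowest library with complex III at -1.18.

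Genotype 068 against control gave no member past an adjusted p of 0.05, and no gene (0%). At an unadjusted p below 0.05 edgeR gave 5 members (6.76%) and 250 genes (2.97%), and DESeq2 and limma called none. The difference was above 0 for 60 of the 74 members (all genes 46.6%), with a median of 0.14 against -0.02. Without colony L it was above 0 for 45 of 75 tested members, with a median of 0.07, and without colony K no member (0 of 76) was under an unadjusted p of 0.05. Under that p were 8 of 78 without L 161 (all genes 4.27%) and 2 of 78 without the 3 libraries set apart (all genes 6.40%). With the length trend removed 1 of 74 was under it (1.35%, all genes 2.45%), and the difference was above 0 for 59 with a median of 0.13. In the same contrast the hemocyte list was above 0 in 0 of 6 tested records (median -0.32), the list of stem and dividing cells in 4 of 12 (-0.32), muscle in 11 of 42 (-0.11) and the gut lining in 24 of 64 (-0.09); their part in the members' values was not tested. The group medians were alike, between 0.13 and 0.14 in all 5 complexes. In 5 members every 068 library was above every control (6.76% of 74, against 0.809% of all tested genes): NDUFA8, CYC1, and the ATP synthase subunits b, c and gamma. In 9 members the 068 library was above its own colony's control in every colony (12.2% of 74, all genes 4.25%) and in 0 below it (all genes 4.18%). CYC1 had the smallest p, with a log2 difference of 0.33 ± 0.12 (SE; unadjusted p = 0.0140, adjusted p = 0.999), followed by ATP synthase c at 0.29 ± 0.12 (SE; unadjusted p = 0.0352, adjusted p = 0.999). UQCRC2 had 109.9, 110.1, 95.04 and 91.6 CPM after 068 and 87.8, 77.5, 82.4 and 92.6 CPM in the controls of K, L, S and T, a difference of 0.25 ± 0.11 (SE; unadjusted p = 0.0367, adjusted p = 0.999). There only the T pair ran the other way. COX6A XM_003394637.1 had 47.4, 50.03, 60.02 and 41.7 CPM after 068 and 39.8, 32.6, 40.1 and 44.4 CPM in the controls, a difference of 0.34 ± 0.15 (SE; unadjusted p = 0.0448, adjusted p = 0.999), again with T reversed. NDUFA7 had 208, 119, 138 and 137 CPM after 068 and 111, 94.6, 135 and 111 CPM in the controls (log2 difference 0.40 ± 0.19, unadjusted p = 0.0478, adjusted p = 0.999). NDUFA8 came sixth at 0.32 ± 0.15 (SE; unadjusted p = 0.0536, adjusted p = 0.999).

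Genotype 075 against control gave no member and no gene past the threshold (0%). There were 0 members and 266 genes (3.16%) at an unadjusted p below 0.05 in edgeR. DESeq2 called 5 genes and limma none, no member among them. The difference was above 0 for 53 of the 74 members (all genes 47.6%), with a median of 0.09 against -0.01; with the length trend removed it was above 0 for 41, with a median of 0.02, and without colony L for 41 of 75, with a median of 0.01. In 3 of the 74 members every 075 library was above every control (all tested genes 0.964%): NDUFA8, ATP synthase c and the leading NDUFB5 record. For NDUFA8 the nearest values were 185.2 CPM in S 075 and 185.04 CPM in the S control. The other NDUFB5 record had 2.91, 2.48, 3.92 and 3.51 CPM after 075 in K, L, S and T. Its controls had 3.07, 5.57, 2.13 and 4.14 CPM. Above the own control in every colony were 7 members (9.46%, all genes 5.02%), and below it 0 (all genes 5.71%). UQCRC2 had the smallest p, 108, 104, 92.3 and 85.97 CPM after 075, against the control values given above, a difference of 0.19 ± 0.11 (SE; unadjusted p = 0.101, adjusted p = 0.999). NDUFS3 had 60.4, 50.4, 58.7 and 54.9 CPM after 075 and 55.9, 41.2, 47.96 and 45.5 CPM in the controls (log2 difference 0.24 ± 0.14, unadjusted p = 0.104, adjusted p = 0.999), higher in each colony. The sparse SDHA record XM_003402299.1 had 2.01, 1.89, 0.762 and 1.70 CPM after 075 and 1.98, 1.16, 0.213 and 0.244 CPM in the controls. Its difference of 1.02 ± 0.60 (SE; unadjusted p = 0.111, adjusted p = 0.999) rests on a mean of 11.8 reads a library, with the S and T controls below the 3-count level. ATP synthase c (0.20 ± 0.12), CYC1 (0.19 ± 0.12) and gamma (0.20 ± 0.14) were next.

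Genotype 161 against control gave no member and no gene past the threshold (0%), and 4 members (5.41%) and 166 genes (1.97%) at an unadjusted p below 0.05 in edgeR, and DESeq2 and limma called none. The difference was above 0 for 36 of the 74 members (all genes 43%), with a median of -0.0027 against -0.04. Without L 161 it was above 0 for 58 of 78 tested members, with a median of 0.12, without colony L for 54 of 75 (0.08) and without colony K for 29 of 76 (-0.06). The 4 members became 2 without colony L and 6 without colony K. Above the own control in every colony were 6 members (8.11%, all genes 3.64%), and below it 1 (1.35%, all genes 4.96%). That 1 was the COX1 record, a sparse one whose L 161 value lay below the 3-count level of 0.415 CPM. It had 1.51, 0.276, 2.32 and 2.01 CPM after 161 and 3.17, 1.86, 5.10 and 4.88 CPM in the controls of K, L, S and T, a difference of -1.30 ± 0.48 (SE; unadjusted p = 0.0181, adjusted p = 0.999), lower in each colony. NDUFA8 had 236, 300.3, 195 and 180.4 CPM after 161 and 146, 178, 185 and 174 CPM in the controls, a difference of 0.39 ± 0.15 (SE; unadjusted p = 0.0228, adjusted p = 0.999), higher in each colony. NDUFA10, another accessory subunit, had 209, 162, 161 and 137 CPM after 161 and 139, 131, 149 and 129.7 CPM in the controls (log2 difference 0.27 ± 0.11, unadjusted p = 0.0273, adjusted p = 0.999). It was higher in each colony too, and the ranges overlapped. UQCRQ XM_003393887.1 had 5.02, 1.11, 5.25 and 1.57 CPM after 161 and 4.55, 3.48, 7.76 and 6.70 CPM in the controls (log2 difference -0.87 ± 0.36, unadjusted p = 0.0307, adjusted p = 0.999). NDUFA4 followed with 0.32 ± 0.15 and UQCRQ XM_003393888.1 with -1.39 ± 0.70, a record with no read in L 161. By complex, all 4 tested complex II records were above 0 (median 0.22), against 5 of 11 of complex III (-0.08), 5 of 11 of complex IV (-0.06), 17 of 35 of complex I (-0.0023) and 5 of 13 of ATP synthase (-0.0081). The 3 genotype comparisons share the 4 control libraries.

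Among the 3 genotypes, with controls left out of the contrast, no member and no gene differed at an adjusted p of 0.05 (0%). At an unadjusted p below 0.05 edgeR gave 2 members (2.70%) and 134 genes (1.59%), and DESeq2 and limma called none. The 2 became 5 without colony K and 0 without colony S or colony T. SDHA had 259, 216, 254 and 210.2 CPM after 068, 215, 172, 197 and 162 CPM after 075 and 234.7, 269.9, 214 and 217 CPM after 161 in K, L, S and T (unadjusted p = 0.0232, adjusted p = 0.9997). The 075 value was the lowest of the 3 in every colony. UQCRQ XM_003393887.1 had 5.47, 4.86, 7.995 and 6.95 CPM after 068, 5.03, 4.61, 5.99 and 4.78 CPM after 075 and the 161 values above (unadjusted p = 0.0316, adjusted p = 0.9997), with the highest value after 068 in every colony. COX6A XM_003394637.1, COX1, ATP synthase b and NDUFAB1 were next, with unadjusted p between 0.0634 and 0.103 and an adjusted p of 0.9997 each.

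Workers of a colony are offspring of its queen. Over the 4 colonies, edgeR gave 39 of 8406 genes (0.464%) and no member at an adjusted p of 0.05, and 855 genes (10.2%) and 3 members (4.05%) at an unadjusted p below 0.05. DESeq2 and limma called no member in this test. Without L 161 there were 10 members of 78 under that p (12.8%, all genes 9.82%), without the 161 libraries 8 of 74 and without the 075 libraries 1 of 74. The 3 were COX6A XM_003394339.1 (unadjusted p = 0.0122, adjusted p = 0.338), NDUFA10 (unadjusted p = 0.0351, adjusted p = 0.467) and NDUFB7 (unadjusted p = 0.0456, adjusted p = 0.482). ATP synthase d, NDUFAB1 and NDUFS8 came next, with adjusted p between 0.503 and 0.522. No member of any colony had its 4 libraries all above or all below the 12 others, where all tested genes gave between 0.119% and 0.345% for a colony and direction.

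COX6A XM_003394339.1 gave the smallest p of all member tests, in colony S against the others. COX6A is a small subunit of complex IV that exists in mammals as tissue-specific isoforms. It had 13.6, 12.8 and 11.8 CPM after 068, 075 and 161 and 19.9 CPM in its control in colony S. In colony K it had 22.3, 26.5 and 26.5 CPM after 068, 075 and 161 and 16.7 CPM in its control. In L it had 19.99, 21.5 and 22.7 CPM after 068, 075 and 161 and 26.3 CPM in its control, and in T 24.7, 24.2 and 18.8 CPM after 068, 075 and 161 and 25.5 CPM in its control. The 3 exposed S libraries were the lowest of the 16, and the S control lay above the K control and the T 161 value. The log2 difference, S over the other colonies, was -0.67 ± 0.17 (SE; unadjusted p = 0.00142, adjusted p = 0.217). In this contrast edgeR called 21 genes (0.25%) and no member. The record was called by DESeq2, without the 3 libraries set apart, and without the 4 control libraries, and under no other alternative. The other COX6A record, XM_003394637.1, had 60.02, 43.1 and 39.7 CPM after 068, 075 and 161 and 40.1 CPM in its control in colony S, with values from 29.7 to 50.03 CPM in the 12 others, and a fitted difference of 0.13 ± 0.12.

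**Figure D4:**
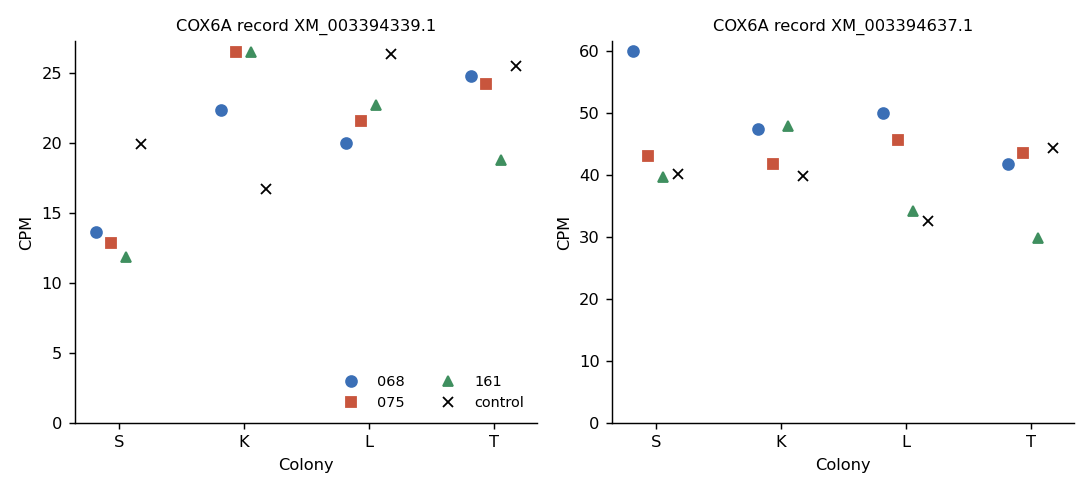
CPM of the 2 records annotated COX6A in each library, by colony, with S at the left. The record in the left panel is at 11.8 to 13.6 CPM in the 3 exposed S libraries, below the 13 other libraries; the record in the right panel does not show that order.

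At an unadjusted p below 0.05, colony S had 11 members (14.9%, all genes 9.56%), and 57 of the 74 were above 0 (all genes 53.8%) with a median of 0.13. Without L 161 this was 52 of 78 with a median of 0.06, and with the length trend removed 43 of 74 with a median of 0.03. ATP synthase d had 242 to 275 CPM (median 260.1) in S and 124 to 248 CPM (median 190.5) in the other colonies (log2 difference 0.42 ± 0.14, unadjusted p = 0.0101, adjusted p = 0.413). NDUFB7 had 17.6 to 25.2 CPM (median 19.3) in S and 8.20 to 19.1 CPM (median 12.996) elsewhere (log2 difference 0.66 ± 0.22, unadjusted p = 0.0104, adjusted p = 0.413). Both overlapped with the other colonies. NDUFAB1 (0.57 ± 0.20) and UQCR10 (0.48 ± 0.18) were next. The gut-lining list was above 0 in 24 of 64 tested records in this contrast (median -0.09), and its part in the members' values was not tested.

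Colony L against the others gave 9 genes (0.107%) and no member at an adjusted p of 0.05, and 9 members (12.2%, all genes 12.9%) at an unadjusted p below 0.05. The difference was above 0 for 16 of the 74 members (all genes 45.4%), with a median of -0.11 against -0.03. Without L 161 it was above 0 for 36 of 78 with a median of -0.03, and 2 members (2.56%, all genes 7.21%) were under that p. With L 161 kept and the length trend removed it was above 0 for 36 of 74 with a median of -0.01. The L control was also low, with a median deviation of -0.24 and 13 of the 74 members above their mean. NDUFS8, an iron-sulphur subunit of complex I, had 56.4 to 81.6 CPM (median 74.5) in L and 74.7 to 103 CPM (median 90.4) in the others (log2 difference -0.32 ± 0.11, unadjusted p = 0.0127, adjusted p = 0.338). The sparse Rieske record XM_003393413.1 had 0.237 to 1.93 CPM (median 1.35) in L and 1.51 to 3.69 CPM (median 2.94) elsewhere (log2 difference -1.20 ± 0.42, unadjusted p = 0.0129, adjusted p = 0.338). SDHD was higher in fitted value, with 108 to 199 CPM (median 123) in L and 90.1 to 129 CPM (median 104) elsewhere (log2 difference 0.34 ± 0.13, unadjusted p = 0.0176, adjusted p = 0.343), its L maximum in L 161. NDUFA9 (-0.33 ± 0.13), NDUFB10 (-0.27 ± 0.11) and UQCRQ XM_003393887.1 (-0.72 ± 0.30) followed.

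Colony K gave 30 genes (0.357%) and no member past the threshold, and 3 members (4.05%, all genes 7.41%) at an unadjusted p below 0.05. Without L 161 there were 8 members of 78 under that p (10.3%, all genes 9.90%), and without the 3 libraries set apart 18 of 78 (23.1%, all genes 13.7%). Above 0 were 50 of the 74 members (all genes 53.6%), with a median of 0.06. Without L 161 this was 42 of 78 with a median of 0.05, and without the 161 libraries 37 of 74 with a median of -0.00037. In this contrast 40 of 64 gut-lining records were above 0 (median 0.12), and their part in the members' values was not tested. NDUFA10 had 181, 155 and 209 CPM after 068, 075 and 161 and 139 CPM in its control in K, against 121 to 162 CPM (median 142) in the other colonies (log2 difference 0.25 ± 0.09, unadjusted p = 0.0122, adjusted p = 0.451). NDUFB7 was lower in fitted value with 8.20 to 15.4 CPM (median 9.83) in K and 8.84 to 25.2 CPM (median 17.2) elsewhere (log2 difference -0.52 ± 0.24, unadjusted p = 0.0484, adjusted p = 0.667). CYC1 (0.20 ± 0.09), COX4 (0.23 ± 0.11), NDUFA4 (0.26 ± 0.12) and the sparse SDHA record (0.95 ± 0.45) followed.

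Colony T gave 12 genes (0.143%) and no member past the threshold, and 2 members (2.70%, all genes 5.53%) at an unadjusted p below 0.05. Without L 161 there were 9 members of 78 under that p (all genes 6.82%), and without the 3 libraries set apart 11 of 78 (all genes 8.55%). Above 0 were 27 of the 74 (all genes 50.1%), with a median of -0.07; without L 161 this was 21 of 78 with a median of -0.09, and without the 075 libraries 35 of 74 with a median of -0.02. Muscle records were above 0 in 29 of 42 in this contrast (median 0.13) and nervous-system records in 17 of 26 (0.13), and their part in the members' values was not tested. NDUFA10 had 121 to 138 CPM (median 133) in T and 131 to 209 CPM (median 149) elsewhere (log2 difference -0.24 ± 0.09, unadjusted p = 0.0202, adjusted p = 0.736). The haem assembly protein COX15 had 17.1 to 19.1 CPM (median 17.3) in T and 8.98 to 17.5 CPM (median 15.01) elsewhere (log2 difference 0.30 ± 0.14, unadjusted p = 0.0473, adjusted p = 0.900). NDUFB6, COX4, COX5B and NDUFA12 followed, with log2 differences from -0.27 to -0.20. For colonies K, L and T, DESeq2 and limma called no member either.

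Whether the response to exposure differed between colonies was tested with the interaction of colony and exposed state. It gave 142 genes (1.69%) and no member at an adjusted p of 0.05, and 902 genes (10.7%) and 2 members (2.70%) at an unadjusted p below 0.05. DESeq2 and limma called no member in it. Without L 161 there were 14 members of 78 under that p (17.9%, all genes 19.8%) and 250 genes past the adjusted threshold, and without colony L 9 of 75 and 345 genes. Without colony K, and without the 3 libraries set apart, no gene passed (0), and 2 of 76 and 9 of 78 members were under an unadjusted p of 0.05. ATP synthase e, a small membrane subunit, had 48.7, 34.8, 36.7 and 33.2 CPM after 068, 40.7, 36.6, 35.3 and 29.01 CPM after 075 and 41.8, 34.3, 41.8 and 23.4 CPM after 161 in K, L, S and T, against 35.9, 37.3, 34.3 and 51.7 CPM in the controls (unadjusted p = 0.00920, adjusted p = 0.208). Every exposed T library was below the T control, and every exposed K library above the K control. The COX6A record XM_003394339.1 was next (unadjusted p = 0.0154, adjusted p = 0.269): its exposed libraries lay below the colony's control in L, S and T and above it in K. UQCRB, NDUFV1, NDUFV2 and NDUFA11 had adjusted p between 0.468 and 0.562. The test compares colonies through 1 control library each, among them the K control. The 3 exposed libraries of a colony, 1 per genotype, served as its replicates. Differences between genotypes thus count in the spread, and the spread between control libraries does not enter it.

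The lowest values of many members fell in L 161. The median deviation of the 74 members there was -0.43 log2 units, against -0.05 for all tested genes, and 58 of 74 lay below their mean over the libraries. It was -1.18 for complex III, -0.66 for complex IV, -0.44 for complex I, -0.41 for ATP synthase and 0.29 for complex II. Of the 74 members, 16 lay below -1 (all genes 13.1%): 6 of complex III, 5 of complex I, 3 of ATP synthase and 2 of complex IV. ATP synthase delta had 1.38 CPM in L 161, against a median of 15.8 CPM in the 15 other libraries (8.65 to 21.9). The hinge protein UQCRH had 5.53 CPM, against a median of 35.8. NDUFS6 had 14.6 CPM, against 72.8, and COX7A had 40.6 CPM, against 120 in the others. In the same library ATP synthase beta (1798 CPM) and SDHD (199 CPM) had their highest values of all 16.

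Length moved in part with this pattern. The 16 low members had a median record length of 755.5 bases, against 1227 bases for the other 58. They also had a lower median level (30.6 against 63.2 RPKM). Across the 74 members the deviation in L 161 correlated with length at a Spearman rho of 0.24 and with level at 0.33, as descriptions over records of 1 library. With each library's trend on length over all genes removed, the member median in L 161 was -0.08. Split at 1157 bases, the 37 shorter members had a median deviation of -0.46 in L 161 and the 37 longer ones -0.39. All tested genes had -0.24 and -0.03 in the same classes. The part of length in the members' values was not tested. The gut-lining records summed to 292784 CPM in L 161, the highest of the 16 libraries. The nervous-system (640.6 CPM), Malpighian tubule (5921 CPM) and enteroendocrine-list (48.9 CPM, 4 receptors) records also had their highest sums there. The part of the library's make-up in these values was not tested.

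**Figure D5:**
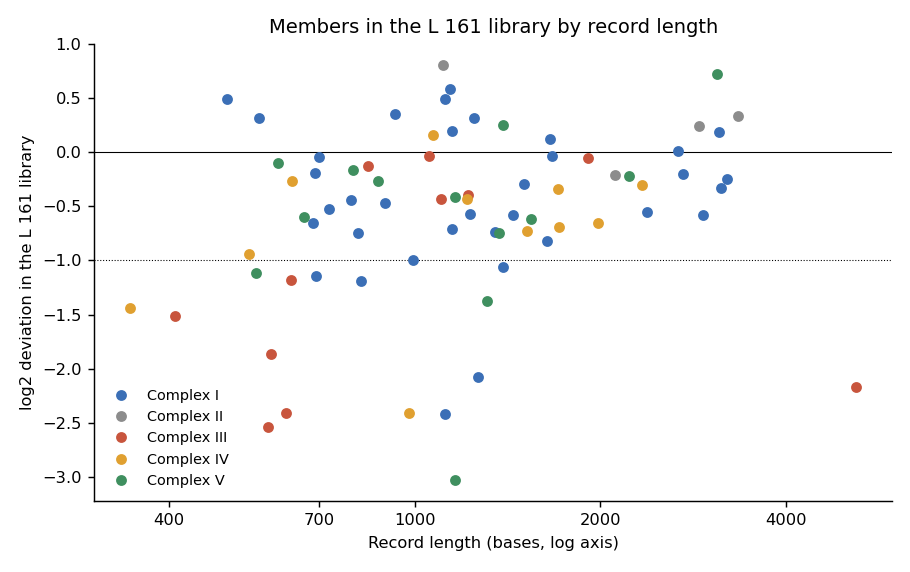
Deviation of the 74 tested members in the L 161 library from their mean log2 CPM, against record length on a log axis, coloured by complex. The dotted line marks -1; the 16 members under it have a median length of 755.5 bases, and the complex II records lie around or above 0.

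Lists of other energy genes, matched by their KEGG definitions, had no call in exposed against control. In exposed against control, none of 25 tested records of pyruvate dehydrogenase and the citric acid cycle passed an adjusted p of 0.05 (16 above 0, median 0.03), and none of 28 glycolysis records did (14 above 0, median 0.02). None of 15 fatty acid beta-oxidation records (10 above 0, median 0.08), 12 carrier and pore records (7, 0.03), 9 records of mitochondrial transcription and import (3, -0.05) or 3 assembly factors (1, -0.02) passed. The V-type proton pump, which acidifies compartments at the cost of ATP, had 13 of 17 above 0 with a median of 0.08 and none past the threshold. The members' own median in this contrast was also 0.08. After 068 the V-type pump was above 0 in 14 of 17 (median 0.16) and beta-oxidation in 10 of 15 (0.14), beside 60 of 74 (0.14) for the members. At an unadjusted p below 0.05 in exposed against control, these lists had 1 record each for the citric acid cycle and glycolysis and 0 for the others. After 068 the V-type pump also had 1 record under that p. Of the glycolysis records 1 passed in the interaction of colony and exposed state (adjusted p = 0.0386).

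The 5 genes outside the set whose log2 CPM followed the members' median deviation most closely over the 16 libraries were, by their KEGG definitions, a mediator subunit 17 (r = 0.91, 0.82 without L 161), a glutamate-cysteine ligase regulatory subunit (0.89, 0.76), dynactin 3 (0.88, 0.84), a KRAB domain-containing zinc finger protein (0.88, 0.73) and a glycerophosphoryl diester phosphodiesterase (0.87, 0.72). The matches of the mediator and zinc finger records to KEGG scored 75.9 and 77.4, under the 100 used as a stricter line for members. The 5 were the top of 8332 genes compared and share libraries and scaling with the members.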

How the data were processed

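Poly(A)-selected gut RNA was sequenced on an Illumina HiSeq, per the labels' protocols. The submitters' processing notes name TopHat 1.9 as aligner; the counting program, its handling of strand and shared reads, and the genome build are not given in the sources used here. The table deposited by the authors gives, per transcript record and library, the read count, the percent of the record covered (coverage) and RPKM, and a score for the match to a KEGG orthologue. The RPKM values of the authors' table were recomputed from its counts and record lengths within a relative tolerance of 1e-06 for all 151539 non-zero values. Column totals were 8.47 to 9.29 M counts, and 3 counts correspond to 0.297 to 0.415 CPM. Reads carry no molecular identifiers, so these limits cover counting error only.

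Members were found by the text of the orthologue definitions, and the members, the gene lists and the tests were chosen with earlier results of these data known. Of the list matches, 60 that shared only spelling with a listed gene were removed after the annotation was seen. For 46 of the 88 members an accession match in RefSeq's gene table (assembly iyBomTerr1.2) gave a locus symbol. The 88 were named from their KEGG orthologues.

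Counts were filtered with filterByExpr (8406 records kept), scaled with TMM and fitted with edgeR 4.0.16 (R 4.3.3) by quasi-likelihood with colony and exposure as terms, over all 16 libraries (9 residual degrees of freedom; biological coefficient of variation 0.282). The interaction fit had colony, exposed state and their product (8 residual degrees of freedom; 0.238). P-values were adjusted by Benjamini-Hochberg over all 8406 genes, with calls at 0.05. Scaled CPM are printed; deviations are log2 CPM with a prior count of 2 minus the record's mean. The colony letter pairs libraries across exposures, because the labels give it as the shared colony. The deviations of same-colony libraries from the exposure means correlated at a mean r of 0.02 (K), 0.25 (L), 0.14 (S) and 0.12 (T), against -0.04 for pairs differing in both labels.

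Alternatives were DESeq2 1.42.0, limma 3.58.1 with a trend, median-of-ratios scaling, no count filter, a mean of at least 1 RPKM, the fit without colony or exposure as block, removal of each library's loess trend on record length (span 0.5), a KEGG score of at least 100, log2(RPKM + 1) for library medians, leaving out each colony, each exposure or the 3 libraries set apart, and, added after the data were seen, leaving out L 161 alone. The test code was run on simulated counts with known changes. The genes named were, per comparison, the 6 members with the smallest p (up to 12 per direction where that many pass), the highest and lowest record of each complex, fixed core subunits, records that share a name, and the 5 non-members most like the member median. One gene that this rule names is not reported here. No sequences or coordinates are printed.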

Additional observations from a re-analysis of the deposited data

Results flagged for a closer look

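Within each group of 4 libraries of 1 exposure, the highest or lowest library was compared with the rest by Dixon's criterion (gap to the nearest library over the whole range above 0.829) for 43 members and for the medians of all members and of each complex. Of 196 such groups, 9 stood out, where chance flags about 1 in 20, or 9.8. NDUFA8 had 272 CPM in K 068, against 194 to 197 CPM in the 3 other 068 libraries. In the same library NDUFV2 had 156 CPM, against 110.4 to 117 CPM, and NDUFA9 had 57.2 CPM, against 64.8 to 65.3 CPM. NDUFA9 also had 33.2 CPM in L 161, against 58.6 to 63.8 CPM in the 3 other 161 libraries. ATP synthase alpha had 551 CPM in K 075, against 469 to 475 CPM, COX5A had 279 CPM in T 075, against 360.1 to 372 CPM, and COX5B had 209 CPM in L 075, against 160.3 to 167 CPM. UQCRB had 315 CPM in the S control, against 193 to 212 CPM in the other controls. The sparse UQCRFS1 record XM_003393413.1 had 1.04 CPM in the L control, against 2.87 to 3.08 CPM. None of the medians stood out by this criterion, that of L 161 included.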

How the results depend on the processing

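The count of members past the threshold was 0 in all 11 comparisons and under every alternative run, except colony S against the others, where it was 1 (COX6A XM_003394339.1) with DESeq2, without the 3 libraries set apart (K control, S 075, L 161) and without the control libraries. There the log2 difference was -0.68, -0.68 and -0.87. Without the replicate block (colony for exposure contrasts, exposure for colony contrasts) the count stayed 0 and no call of a member changed; the interaction has no such fit. The median log2 difference of the members lay between 0.06 and 0.11 for exposed against control, 0.07 and 0.21 for 068, 0.01 and 0.14 for 075, and -0.06 and 0.12 for 161; it was 0.08, 0.12, 0.09 and 0.01 without the block. Leaving out 1 colony gave 0.06 to 0.11, 0.07 to 0.21, 0.01 to 0.14 and -0.06 to 0.08; the lowest for 068 and 075 came without colony L. Removing the length trend moved the library medians to -0.23 (K control), 0.21 (K 068), -0.081 (L 161), 0.014 (S 068), -0.048 (S 075) and -0.17 (T 075). On log2(RPKM + 1), without TMM, they moved to 0.16 (K control), 0.076 (K 068), 0.16 (S 068) and 0.0038 (T 075); L 161 was at -0.71, K 161 at 0.022, S 161 at 0.29 and the T control at -0.10, moves within 1 SD of the 4 libraries of that exposure. Other causes of these moves were not tested. Of the fitted differences of named members, 6 changed sign in an alternative, all in exposed against control and none of them called. Without the 3 libraries set apart, ATP synthase beta was at -0.0232, SDHA at -0.0828, NDUFV1 at -0.114, NDUFS1 at 0.00213 and UQCRFS1 at 0.0508. Without L 161 alone, NDUFS1 was at 0.000602 and UQCRFS1 at 0.0309. Leaving out 1 colony gave -0.00903 (without K) to 0.134 (without S) for COX5A, -0.0241 (without K) to 0.11 (without T) for SDHA, -0.123 (without K) to 0.103 (without T) for NDUFV1 and -0.0564 (without L) to 0.0413 (without T) for UQCRFS1, which was at 0.000343 without S. The number of genes called lay between 14 and 233 among colonies (39 as reported; 233 with DESeq2), 7 and 71 for K (30), 3 and 109 for L (9), 4 and 143 for S (21), 10 and 51 for T (12), and 0 and 345 for the interaction (142). For 075 it was 0, with 5 by DESeq2 and 10 without the 3 libraries. Depth limited the sparse records, 14 of which were not tested.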

Other observations

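L 161 was not the only library with low single members. In K 068 the members below -1 log2 unit were NDUFS6 (-1.39), NDUFA1 (-1.01) and the COX1 record (-1.38), 3 of 74 where 4.95% of all tested genes were below -1. The same 3 were below -1 in L 161 (-2.08, -1.14 and -2.41). They were named after their values were seen. NDUFS6, an accessory subunit of complex I, had 23.7 CPM in K 068 and 14.6 CPM in L 161, against 56.0 to 98.9 CPM in the 14 other libraries.

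Low counts in the deposited table were mostly even numbers. Of all counts from 1 to 9, 69.1% were even, and of counts from 200 to below 1000 it was 49.6%. Of the 149 member counts from 1 to 9, 80.5% were even.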
